A study of Rattus norvegicus with 18 samples.

Results

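The synaptic vesicle fusion machinery was followed in cervical dorsal root ganglia (DRG) through the genes whose RefSeq symbol is Syt, Stx, Stxbp, Vamp or Cplx with a number, or Snap23, Snap25, Snap29 or Snap47. The rule found 50 genes, which took 51 of the 15075 rows of the count table, since *Stxbp5* was counted under 2 identifiers. The filter (over 10 reads in 6 or more of the 18 rats) was passed by 45 of the 51 rows, and 43 of these had more than 10 reads in all 18 rats. Another 5 symbols that match the rule (*Stx16*, *Stxbp4*, *Syt14*, *Syt16* and *Vamp9*) have no row and were not analysed here.

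Poly(A) RNA of the C6-C8 DRG, the ganglia that hold the cell bodies of sensory neurons of the forelimb, was sequenced from 18 adult lister hooded rats in 3 groups of 6. Naïve rats (41, 42, 43, 44, 45 and 49) had no operation and no injection. The other 12 rats had a bilateral pyramidotomy (bPYX), in which the corticospinal tract of each side is transected at the medullary pyramids while the DRG themselves stay uncut, and the next day an adeno-associated viral vector was injected into the forelimb flexors of 1 side. In bPYX+GFP rats (5, 15, 18, 21, 52 and 57) the vector was AAV1 GFP and in bPYX+NT3 rats (2, 11, 17, 23, 39 and 40) it was AAV1 prepro-neurotrophin-3, with human neurotrophin-3 (NT3) as the insert and the CMV promoter, which acts in many cell types, driving both. The ganglia of the treated side were taken 10 weeks after injury and pooled within a rat, so each library is 1 rat and holds neurons, glia and connective tissue together. Rats were grouped by the rat numbers in the count table's headings, which match the samples' descriptions, whereas the titles of the records that hold the single-rat files give another group for 17 of the 18 rats. With the groups of those titles, *Stx11* differed by 0.02 and *Vamp3* by 0.07 on the log2 scale in the comparisons in which they are called below, so every direction given here rests on the table's headings. In such bulk RNA, fewer cells of a type and less RNA per cell cannot be told apart.

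Neurotransmitter release depends on SNARE proteins. Syntaxins and Snap25 on the plasma membrane zip together with Vamp proteins (synaptobrevins) on the vesicle and pull the membranes together, Munc18 proteins (the *Stxbp* genes) hold and template the syntaxins, complexins clamp the partly zipped complex, and calcium-binding synaptotagmins couple it to calcium entry. Sensory neurons make these proteins in the DRG and send them along the axon to terminals in the spinal cord and the periphery. Relatives of the same families serve endosomes, the Golgi and the endoplasmic reticulum in every cell type of the ganglion.

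Between 10057787 and 16002410 read-pairs per rat were counted on genes. The labelled tissue was checked against marker lists: all 10 neuronal markers were detected in every rat, with a summed level of 9222 to 10725 CPM (counts per 1e6 reads) in naïve, 10006 to 11909 CPM in bPYX+GFP and 9368 to 11853 CPM in bPYX+NT3 rats. Rat 57 (bPYX+GFP) and rat 11 (bPYX+NT3) stood apart from the other rats. They had the highest shares of ambiguous read-pairs (those that overlap more than 1 annotated gene or transcript). These were 3.31% and 3.41% against 2.79% to 3.04% in the other 16 rats. Their summed neuronal markers were also the highest. Their shares on no annotated gene (no-feature share) were the lowest, 31.7% and 30.8% against 32.5% to 34.6%. So were their shares not aligned uniquely, 19.0% and 19.7% against 20.7% to 22.3%. These measures cannot be told apart in these 2 rats. For some of the members whose difference moved with rat 57 or rat 11, the value without that rat is given.

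Promoter sequences are shown first for the members on which the later results turn. *Stx11* was lower in bPYX+GFP than in naïve rats, *Stx1a* had the largest difference of the neuronal core, and *Cplx1*, *Syt3* and *Stxbp3* varied most closely with the ambiguous share, the former pair upward and *Stxbp3* downward. Each is the 250 bases before the RefSeq gene start (build GRCr8, not the Rnor_6.0 build of the counts), 5′ to 3′ on the strand of the gene, with GC boxes (GGGCGG on either strand) in capitals.
Stx11 (chr1:9140220-9140469, minus strand): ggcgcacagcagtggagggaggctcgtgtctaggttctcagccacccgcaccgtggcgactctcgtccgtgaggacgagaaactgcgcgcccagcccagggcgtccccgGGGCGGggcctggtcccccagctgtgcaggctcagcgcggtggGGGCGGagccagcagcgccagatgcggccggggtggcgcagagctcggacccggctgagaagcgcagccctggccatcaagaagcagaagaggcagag
Stx1a (chr12:27306472-27306721, minus strand): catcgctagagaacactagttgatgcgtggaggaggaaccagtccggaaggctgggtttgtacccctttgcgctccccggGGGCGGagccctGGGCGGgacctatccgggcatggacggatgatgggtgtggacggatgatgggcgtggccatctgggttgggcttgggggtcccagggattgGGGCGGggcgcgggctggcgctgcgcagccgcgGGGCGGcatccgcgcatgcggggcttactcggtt
Cplx1 (chr14:1328823-1329072, plus strand): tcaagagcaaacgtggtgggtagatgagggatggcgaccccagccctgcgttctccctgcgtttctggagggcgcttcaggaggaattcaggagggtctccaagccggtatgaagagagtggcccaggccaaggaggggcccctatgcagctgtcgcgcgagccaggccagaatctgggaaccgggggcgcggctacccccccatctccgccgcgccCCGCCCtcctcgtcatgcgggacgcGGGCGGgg
Syt3 (chr1:104017874-104018123, plus strand): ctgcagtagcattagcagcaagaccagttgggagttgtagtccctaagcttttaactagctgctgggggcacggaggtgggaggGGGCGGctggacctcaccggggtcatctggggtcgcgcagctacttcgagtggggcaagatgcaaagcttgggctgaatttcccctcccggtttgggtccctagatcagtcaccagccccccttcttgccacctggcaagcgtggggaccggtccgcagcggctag
Stxbp3 (chr2:199173824-199174073, minus strand): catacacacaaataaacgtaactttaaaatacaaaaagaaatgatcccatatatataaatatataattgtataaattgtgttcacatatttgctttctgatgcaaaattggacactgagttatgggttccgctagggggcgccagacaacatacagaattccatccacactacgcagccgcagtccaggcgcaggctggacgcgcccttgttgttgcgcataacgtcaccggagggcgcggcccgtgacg
A promoter was found for 39 of the 50 genes, and the other 11, *Vamp3* and *Snap25* among them, were not matched. *Stx1a* holds 4 GC boxes, *Stx11* and *Cplx1* 2 each, *Syt3* 1 and *Stxbp3* 0. A GC box stood in 24 of the 39 member promoters (61.5%) against 30.5% of all 33469 promoters of the same length, beside a median GC content of 60.8% and 51.2%. CCAAT, on either strand, stood in 33.3% of member promoters against 34.0% of all, TATAAA in 7.69% against 12.9%, CACGTG in 12.8% against 5.59% and TGACGTCA in 2.56% against 1.59%. These matches describe the letters only, and some GC boxes overlap longer GC-rich runs.

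Counts are given below as normalized counts (reads scaled to the mean library size), which are not scaled by transcript length, so levels are compared between rats and not between genes. A member was called at an unadjusted p under 0.05 of edgeR's quasi-likelihood test, the cut used in the study, with the Benjamini-Hochberg adjusted p over all genes tested beside it. With 6 rats against 6, the smallest p that a two-sided exact permutation test can give is 0.00216.

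The fusion machinery as a group differed little between the 3 groups of rats. Between bPYX+GFP and naïve rats 1 of 44 members tested was called, which is 2.27% beside 3.25% of all genes tested. Between bPYX+NT3 and naïve rats 1 of 44 was called, or 2.27% beside 6.01% of all genes. For bPYX+NT3 against bPYX+GFP 0 of 44 were called beside 1.73% of all genes, with 0 at an exact permutation p under 0.05, and edgeR's likelihood ratio test and DESeq2 each called 1. With this test no member and no gene of the table passed an adjusted p of 0.05 in any of the 3 comparisons (the likelihood ratio test and DESeq2 passed 13 and 16 genes for bPYX+GFP against naïve), and in no member were the values of 2 groups free of overlap. The shares of members called lay below those of all genes, so the counts are no result about the members. For overlap and for the exact permutation p no share over all genes is given here, so those counts are no result about them either.

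The differences were also small in size. The median log2 fold change of the 44 members was 0.03 for bPYX+GFP against naïve (0.01 over all genes tested), 0.03 for bPYX+NT3 against naïve (0.00 over all genes) and -0.01 for bPYX+NT3 against bPYX+GFP (0.00 over all genes). Within ±0.25 lay 41, 39 and 41 of the 44 in the same order, and the 95% interval lay inside ±0.5 for 35, 36 and 36. Those differences were therefore bounded at this depth, whereas for the other members a difference beyond 0.5 was not excluded by its interval. *Syt17* (3.94 to 22.8 normalized counts over the rats) passed the filter over 18 rats and not within any pair of groups, and was not tested.

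**Figure D1:**
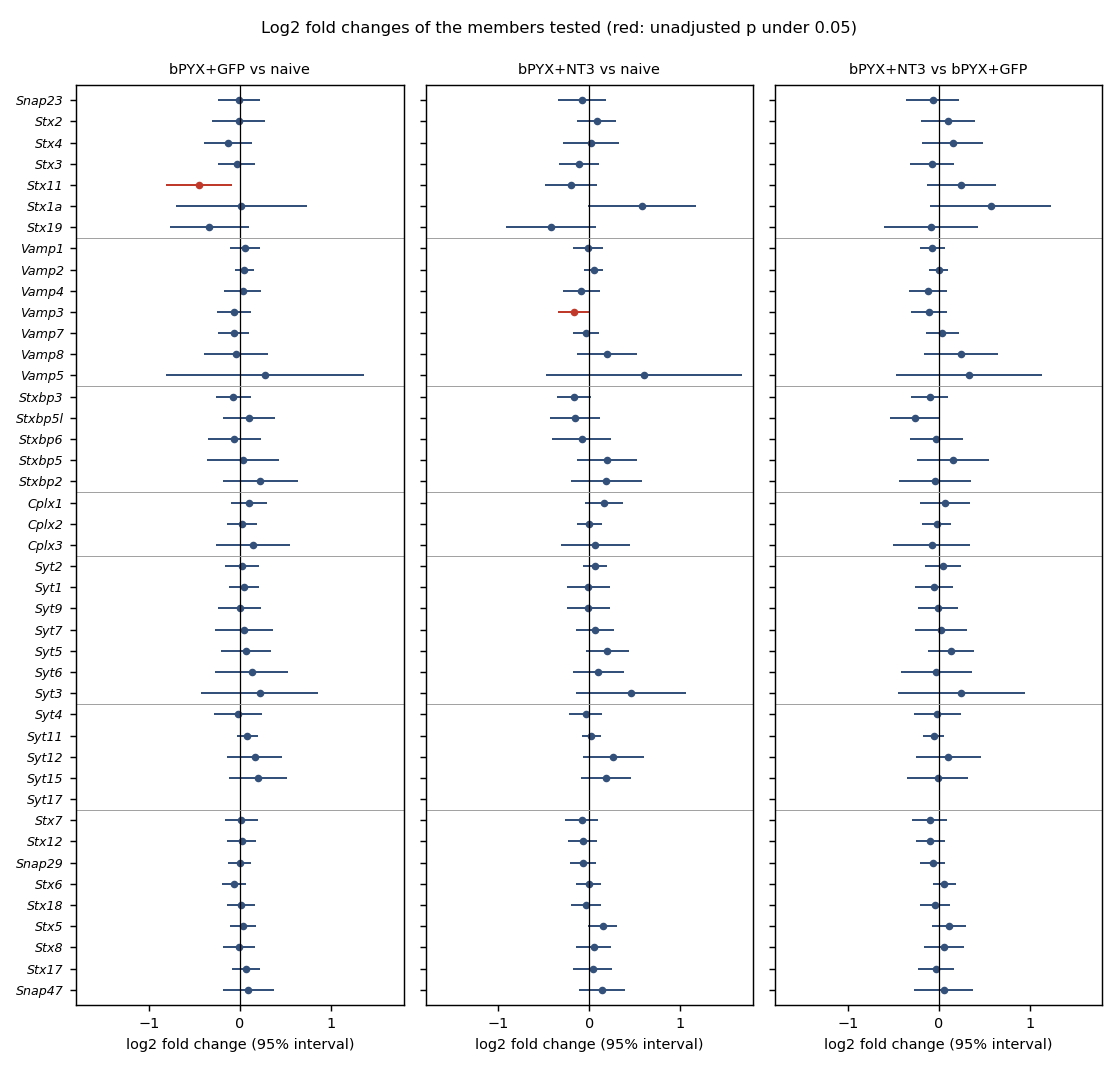
Log2 fold changes of 42 members tested (points) with 95% intervals (lines) in the 3 comparisons, ordered by role, with thin lines between the role groups; positive values are higher in the first named group. Red marks an unadjusted p under 0.05, reached by *Stx11* in bPYX+GFP vs naive and *Vamp3* in bPYX+NT3 vs naive, and the widest intervals belong to *Vamp5*, *Syt3* and *Stx1a*.

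Of the neuronal core of the release machinery, *Stx1a*, *Snap25*, *Vamp1*, *Vamp2*, *Syt1*, *Syt2*, *Cplx1* and *Cplx2* are described here, and none was called in any comparison (*Snap25* was not tested). *Vamp2*, the synaptobrevin of most central terminals, was the steadiest member measured. Its normalized counts had a lowest value, median and highest value of 6211, 6613 and 6744 in naïve rats, 6494, 6801 and 7066 in bPYX+GFP rats and 6562, 6732 and 6980 in bPYX+NT3 rats. The SD over the 18 rats was 0.05 on the log2 CPM scale. The 3 ranges overlapped, although the exact permutation test between bPYX+NT3 and naïve rats gave p = 0.0433 for a log2 fold change of 0.05 ± 0.0428 (SE; edgeR adjusted p = 0.633).

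*Vamp1*, the synaptobrevin most used by large myelinated sensory and motor neurons, had 14556, 17093 and 18880 normalized counts (lowest, median and highest) in naïve rats, 16150, 18123 and 18958 in bPYX+GFP rats and 15329, 17137 and 18465 in bPYX+NT3 rats. It had the most reads among the vesicle SNAREs, and its groups overlapped. Its log2 fold changes were 0.06 ± 0.0701, -0.01 ± 0.0703 and -0.07 ± 0.0599 (SE) for bPYX+GFP against naïve, bPYX+NT3 against naïve and bPYX+NT3 against bPYX+GFP.

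The calcium sensors of fast release, *Syt1* and *Syt2*, were not called in any comparison. *Syt2*, which serves fast synapses and had the most reads of the calcium-binding synaptotagmins, had 3300, 3479 and 3629 normalized counts in naïve rats, 3196, 3299 and 4428 in bPYX+GFP rats and 3278, 3753 and 3887 in bPYX+NT3 rats. *Syt1* had 1551, 1928 and 2072 in naïve rats, 1731, 1966 and 2059 in bPYX+GFP rats and 1393, 1891 and 2213 in bPYX+NT3 rats. All their log2 fold changes lay between -0.05 and 0.06. The highest *Syt2* value was in rat 57 and the lowest *Syt1* value in rat 11.

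*Cplx1*, the complexin of fast synapses, had a median of 5561 in naïve rats (5434 to 6227), of 5875 in bPYX+GFP rats (5289 to 7819) and of 6043 in bPYX+NT3 rats (5455 to 8589) normalized counts, with rats 57 and 11 at the top of their groups. The log2 fold change of *Cplx1* between bPYX+NT3 and naïve rats was 0.16 ± 0.0937 (SE; adjusted p = 0.607), and its interval reached from -0.04 to 0.36. Without rat 11 it was 0.06, without rat 23 it was 0.20 and past the threshold, and with the ambiguous share as a covariate it was -0.01. For bPYX+GFP against naïve it was 0.10, or 0.01 without rat 57. *Cplx2*, the other main neuronal complexin, ranged from 426 to 546 over all rats and its log2 fold changes lay between -0.02 and 0.03.

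**Figure D2:**
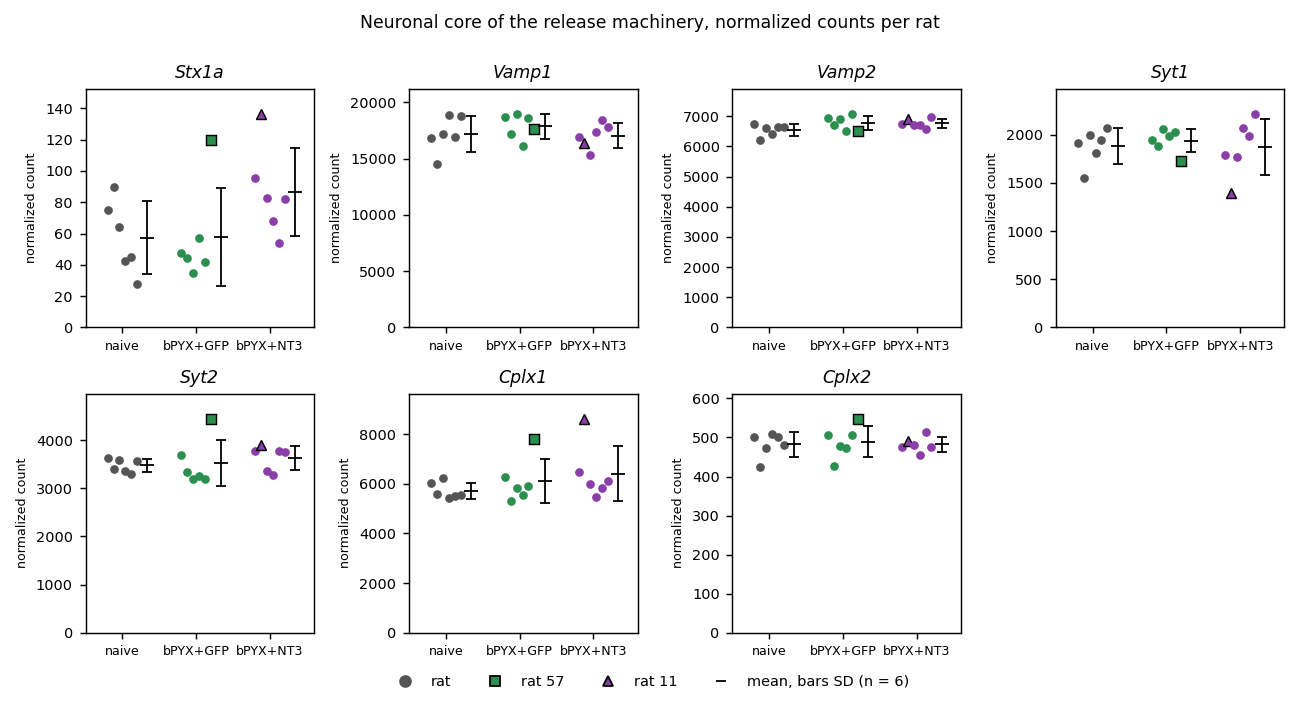
Normalized counts (y axes, from 0) of 7 core members in each rat by group, with the group mean and SD (n = 6) beside the points; the square is rat 57 and the triangle rat 11. The groups overlap in every panel, and *Stx1a* has the widest relative spread, from 27.7 to 136.

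*Stx1a*, a syntaxin of the neuronal plasma membrane and a gene the study singled out on these same samples, had few reads and the widest spread among these. Naïve rats had 75.1, 90.1, 64.0, 42.8, 44.9 and 27.7 normalized counts (rats 41, 42, 43, 44, 45 and 49). In bPYX+GFP rats 5, 15, 18, 21, 52 and 57 the values were 47.4, 44.5, 34.6, 57.2, 41.9 and 119.6. In bPYX+NT3 rats 2, 11, 17, 23, 39 and 40 they were 95.3, 136, 82.5, 68.2, 54.1 and 82.1. The bPYX+NT3 rats were all above the bPYX+GFP median of 45.9, but rat 57 lay above 5 of them and the groups overlapped.

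The log2 fold change of *Stx1a* was 0.02 ± 0.33 (SE) for bPYX+GFP against naïve, 0.58 ± 0.272 for bPYX+NT3 against naïve (p = 0.0514, adjusted p = 0.607, exact permutation p = 0.0714) and 0.57 ± 0.304 for bPYX+NT3 against bPYX+GFP (p = 0.0805, adjusted p = 0.851, exact permutation p = 0.0714). None of these passed the threshold, although the value against naïve rats did so without any 1 of rats 41, 42, 23 and 39 (0.64 to 0.77) and was 0.40 without rat 11. The last value moved with single libraries: it passed the threshold without rat 57 (0.93, adjusted p = 0.251) or rat 39 (0.68), and without rat 11 it was 0.38. Without both rats 57 and 11, left out after their values were seen, it was 0.76 and past the threshold (adjusted p = 0.385). Without rat 57 there were also more calls over all genes, 2291 in place of 201. With the ambiguous share as a covariate, added after the data were seen, the value against bPYX+GFP rats was 0.39 and past the threshold (adjusted p = 0.9993). It also passed with the no-feature share (0.35, adjusted p = 0.9996) and the neuronal marker level (0.74, adjusted p = 0.262). Over all genes these fits called 332, 225 and 2191. None of these covariates brought the value against naïve rats past the threshold. The study shows the gene in a figure of genes that it describes as changed by the injury and fully or partly normalized by NT3. In the fit used here bPYX+GFP and naïve rats differed by 0.02, and bPYX+NT3 rats lay 0.58 above naïve rats. As the gene was picked by the study from these samples, the differences of the bPYX+NT3 rats are not independent evidence.

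*Snap25*, the neuronal plasma membrane SNARE that pairs with syntaxin and Vamp, could not be followed. Of it 3 RefSeq identifiers were counted separately, and the 1 with a row in the table had between 0 and 7 reads per rat. Reads that fit more than 1 of overlapping features are set aside as ambiguous in such counting, so the row does not measure the gene. *Snap23*, which stands in for Snap25 in cells other than neurons, had 488, 568 and 643 normalized counts in naïve, 409.7, 597 and 629.6 in bPYX+GFP and 399.5, 521 and 671 in bPYX+NT3 rats (named after its values were seen).

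Of the plasma membrane syntaxins, *Stx11* was the member called between bPYX+GFP and naïve rats. It is a syntaxin known from the secretion of cytotoxic granules by lymphocytes. Naïve rats 41, 42, 43, 44, 45 and 49 had 118.6, 170.9, 164.5, 149, 139 and 124 normalized counts, and bPYX+GFP rats 5, 15, 18, 21, 52 and 57 had 88.7, 103, 114, 114, 149 and 67.8. In bPYX+NT3 rats 2, 11, 17, 23, 39 and 40 the values were 117, 138, 163, 112, 112 and 110.1. The bPYX+GFP values were low except in rat 52, which lay above the naïve median of 144, so the groups overlapped.

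The log2 fold change of *Stx11* between bPYX+GFP and naïve rats was -0.45 ± 0.163 (SE), with an interval from -0.80 to -0.10, p = 0.0156 and an exact permutation p of 0.0195. It did not pass the correction (adjusted p = 0.9998), and the naïve median was above 5 of the 6 bPYX+GFP rats. The call held in all 12 fits that left out 1 rat, with log2 fold changes between -0.57 and -0.35. For bPYX+NT3 against naïve it was -0.20 ± 0.13 (exact permutation p = 0.134), and for bPYX+NT3 against bPYX+GFP 0.25 ± 0.171 (exact permutation p = 0.182). Neither of these was called, and the naïve rats are shared by the first pair of comparisons.

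Macrophage markers were examined beside *Stx11*. In the same comparison 1 of 5 was called, *Cx3cr1* with a log2 fold change of -0.47 (exact permutation p = 0.0433). The other 4 were lower in the mean by log2 fold changes between -0.31 and -0.06 and not called. Their summed level ranged from 41.3 to 95.5 CPM in naïve, 34.7 to 70.6 CPM in bPYX+GFP and 39.5 to 102 CPM in bPYX+NT3 rats. With the summed level of neuronal markers as a covariate the *Stx11* difference was -0.29 and no longer called. The part of other cell types in this difference was not tested.

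**Figure D3:**
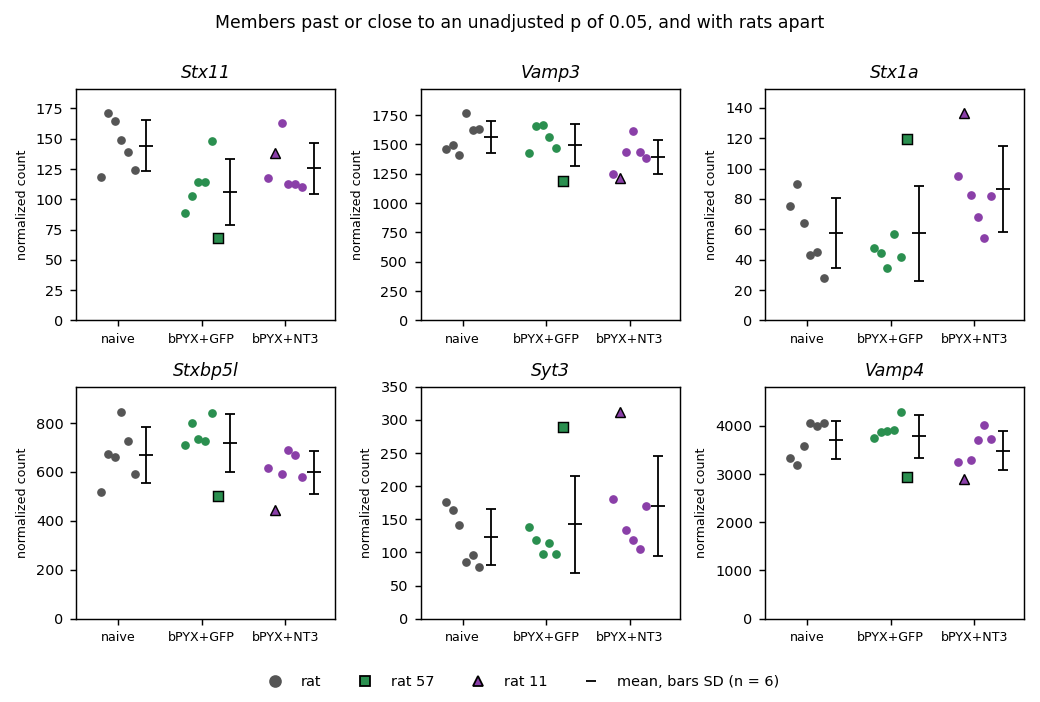
Normalized counts (y axes, from 0) in each rat by group for *Stx11* and *Vamp3* (called), *Stx1a* and *Stxbp5l* (unadjusted p between 0.05 and 0.09) and *Syt3* and *Vamp4* (rats 57 and 11 apart), with mean and SD (n = 6). Rat 57 (square) is the lowest bPYX+GFP rat for *Stx11*, *Vamp3*, *Stxbp5l* and *Vamp4* and the highest for *Stx1a* and *Syt3*.

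*Vamp3* (cellubrevin), the vesicle SNARE of recycling endosomes in most cells, was the member called between bPYX+NT3 and naïve rats. Naïve rats 41, 42, 43, 44, 45 and 49 had 1459, 1494, 1407, 1764, 1624 and 1632 normalized counts. The bPYX+GFP rats 5, 15, 18, 21, 52 and 57 had 1431, 1660, 1661, 1560.4, 1471 and 1187, and the bPYX+NT3 rats 2, 11, 17, 23, 39 and 40 had 1251, 1216, 1437, 1616, 1436 and 1382. Rats 2, 11 and 57 were low, and the bPYX+NT3 and naïve rats overlapped.

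The log2 fold change of *Vamp3* between bPYX+NT3 and naïve rats was -0.17 ± 0.0778 (SE; p = 0.0454, adjusted p = 0.607, exact permutation p = 0.0519), with 5 of 6 bPYX+NT3 rats below the naïve median. The call held by a narrow margin: it was kept in 4 of 12 fits that left out 1 rat, in which the value ranged from -0.22 to -0.13, and was lost without any of rats 44, 45, 49, 2, 11, 17, 39 and 40. Against bPYX+GFP rats the value was -0.11 ± 0.0876 (exact permutation p = 0.314). With the ambiguous share as a covariate, added after the data were seen, the difference was -0.07 and no longer called.

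The other vesicle SNAREs (*Vamp4*, *Vamp5*, *Vamp7* and *Vamp8*) were not called, and their log2 fold changes ranged from -0.12 to 0.60. The upper end belonged to *Vamp5*, with an interval from -0.47 to 1.67 between bPYX+NT3 and naïve rats. It had 1.11 to 28.2 normalized counts over the rats and more than 10 reads in only 9 of 18. The highest value was that of rat 11, and the other bPYX+NT3 rats had 8.37 to 14.4. For *Vamp4*, a SNARE of the Golgi and of bulk endocytosis, the naïve rats spanned 3190 to 4072 normalized counts, the bPYX+GFP rats 2939 to 4298 and the bPYX+NT3 rats 2901 to 4017.

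The Munc18 and other syntaxin-binding proteins had 7 rows, of which 6 were tested and none called. *Stxbp5l* (tomosyn-2), which competes with Vamp for syntaxin, came closest. Its normalized counts had a lowest value, median and highest value of 517, 666 and 847 in naïve, 499.9, 731 and 840.3 in bPYX+GFP and 443, 604 and 689 in bPYX+NT3 rats. All 6 bPYX+NT3 rats lay below the bPYX+GFP median, and rat 57 lay below 5 of them. The log2 fold change for bPYX+NT3 against bPYX+GFP was -0.26 ± 0.123 (SE; p = 0.051, adjusted p = 0.851, exact permutation p = 0.102), and it was past the threshold without rat 57 (-0.35, adjusted p = 0.251), rat 23 (-0.31) or rat 39 (-0.30). *Stxbp3* (Munc18c), which acts with Stx4 in many cell types, had a log2 fold change of -0.17 ± 0.0808 between bPYX+NT3 and naïve rats (exact permutation p = 0.0671, adjusted p = 0.607), and it passed the threshold in 5 of 12 fits that left out 1 rat (41, 42, 43, 23 or 39). Over the 12 fits the *Stxbp3* value ranged from -0.20 to -0.12. *Stxbp5l* and *Stxbp3* were named after their values were seen. One row of *Stxbp5* had 3 to 18 reads per rat and was not tested, and since 3 identifiers of that gene were counted separately the values of both its rows are uncertain.

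Of the 8 calcium-binding synaptotagmins 7 were tested and none called, with log2 fold changes from -0.05 to 0.46. The largest was that of *Syt3*, a sensor with high calcium affinity, between bPYX+NT3 and naïve rats (0.46 ± 0.276 SE, exact permutation p = 0.195, adjusted p = 0.607), which was 0.19 without rat 11. For bPYX+NT3 against bPYX+GFP it was 0.25, or 0.59 and past the threshold without rat 57 and -0.03 without rat 11, and for bPYX+GFP against naïve 0.22, or -0.13 without rat 57. Its values were 77.5, 119 and 176 (lowest, median and highest) in naïve rats, 97.7, 116 and 289 in bPYX+GFP rats and 105, 152 and 313 in bPYX+NT3 rats. Without rats 57 and 11 the highest value was 181, in rat 2. *Syt5* had a log2 fold change of 0.20 ± 0.106 between bPYX+NT3 and naïve rats, with 6 of 6 bPYX+NT3 rats above the naïve median (exact permutation p = 0.0714, adjusted p = 0.607). Both were named after their values were seen.

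Of the 7 other synaptotagmins 4 were tested and none called. *Syt4*, a synaptotagmin of dense-core vesicles that does not bind calcium in the usual way, had the most reads of them, with 12418, 14513 and 15775 normalized counts in naïve, 9634, 15462 and 15869 in bPYX+GFP and 12183, 14113 and 15814 in bPYX+NT3 rats. The lowest value was that of rat 57. *Syt11* differed by little in a narrow spread: 7160 to 8018 in naïve and 7714 to 8585 in bPYX+GFP rats, where 6 of 6 bPYX+GFP rats lay above the naïve median. Its log2 fold change was 0.08 ± 0.0483 (SE), with an exact permutation p of 0.0216 and an edgeR p of 0.108 (adjusted p = 0.9998).

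The 9 members that serve endosomes, the Golgi and the endoplasmic reticulum were all tested and none called, with log2 fold changes between -0.10 and 0.15 in all 3 comparisons. *Stx7*, a syntaxin of late endosomes and the one with the most reads, had 4822, 5511 and 6027 normalized counts in naïve, 4459, 5632 and 6422 in bPYX+GFP and 4453, 5224 and 5741 in bPYX+NT3 rats. *Stx5*, a Golgi syntaxin, had the largest difference, 0.15 ± 0.0712 (SE) between bPYX+NT3 and naïve rats (exact permutation p = 0.0649, adjusted p = 0.607).

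The rows that failed the filter were *Cplx4* (0 to 6 reads per rat), *Syt8* (0 to 3), *Syt10* (2 to 10), *Syt13* (1 to 10), *Snap25* and 1 of the *Stxbp5* rows. Without a filter *Syt10* passed the unadjusted threshold for bPYX+NT3 against bPYX+GFP (log2 fold change -0.99, adjusted p = 0.86) at 2 to 10 reads per rat, and it was not among the members tested. *Cplx2*, *Snap23*, *Stx3*, *Stx19* and *Vamp7* overlap another counted gene. A partner was taken to be on the other strand also where a strand was missing, so its strand is not certain. The strand setting of the counting is not given in the sources used here, so reads of the partner may be among those of the member.

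Among related genes of the same process, listed by role, 0 of 52 tested were called between bPYX+GFP and naïve rats and 0 of 53 for bPYX+NT3 against bPYX+GFP, while 4 of 52 were higher and 0 lower between bPYX+NT3 and naïve rats. These 4 are 7.69% of those tested, near the 6.01% of all genes called, so the count is no result about the process. The 4 were *Rims3*, a small relative of the active zone scaffold RIM (log2 fold change 0.33 ± 0.136 SE, exact permutation p = 0.0519), and the vesicle membrane proteins *Sv2a* (0.26 ± 0.11, 0.0541), *Syp* (synaptophysin, 0.35 ± 0.157, 0.0758) and *Syngr1* (synaptogyrin, 0.81 ± 0.369, 0.0952). The adjusted p was 0.607 for each. In the same comparison 1 of 10 neuronal markers was called, *Avil* (0.19, exact permutation p = 0.0368), and the median over that list was 0.18.

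The clearest pattern among the members lay between single rats. Over the 18 rats, rat 57 or rat 11 held the highest value of 20 of the 45 members (44.4%) and the lowest of 16 (35.6%). Over all 11821 genes that passed the same filter the shares were 35.4% and 35.3%, so the pattern was general and not particular to the fusion machinery. It was found in the data and not sought in advance.

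Many members also followed the ambiguous share across all rats. The median share was 2.88% in naïve (2.79% to 3.00%), 2.87% in bPYX+GFP (2.79% to 3.31%) and 2.98% in bPYX+NT3 rats (2.88% to 3.41%). The share and the bPYX+NT3 group therefore cannot be fully told apart. Of 45 relations computed, 19 were positive and 14 negative with a Benjamini-Hochberg adjusted permutation p of Pearson r under 0.05. The strongest positive were *Cplx1* (Pearson r = 0.95, Spearman rho = 0.83) and *Syt3* (r = 0.94, rho = 0.91), and among the core *Stx1a* (r = 0.84, rho = 0.87) and *Syt2* (r = 0.80, rho = 0.78) were positive too. The strongest negative were *Stxbp3* (r = -0.90, rho = -0.89), *Vamp3* (r = -0.87, rho = -0.90), *Snap23* (r = -0.87, rho = -0.75) and *Vamp4* (r = -0.85, rho = -0.78). For *Cplx1*, *Syt3*, *Stx1a*, *Stxbp3* and *Vamp3* the permutation p of r was 1e-05 in each, the smallest that 100000 resamples can give, and 4.5e-05 after adjustment.

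Many of these relations, but not all, held without rats 57 and 11. These 2 lie farthest from the median share, and without them r was 0.75 for *Cplx1*, 0.88 for *Syt3*, 0.80 for *Stx1a*, -0.82 for *Stxbp3* and -0.85 for *Vamp3*. Within naïve, bPYX+GFP and bPYX+NT3 rats r was 0.78, 0.93 and 0.99 for *Cplx1*, 0.77, 0.95 and 0.93 for *Stx1a* and -0.84, -0.96 and -0.79 for *Vamp3*. An r above 0.5 was found in 19 of 45 members (42.2%) and below -0.5 in 14 (31.1%), against 33.7% and 33.2% of all genes, and without the 2 rats in 35.6% and 22.2% against 27.5% and 24.9%. Of these 19 and 14 members, 26 stayed beyond ±0.5 on the same side without the 2 rats. Among those that did not, r went from -0.54 to 0.17 for *Stx17*, from -0.65 to -0.17 for *Syt1* and from -0.70 to -0.35 for *Stxbp6*. By Spearman rho, *Stx17* (-0.11, adjusted permutation p = 0.687) and *Syt1* (-0.40, 0.131) did not pass. *Vamp2* (r = 0.09) and *Stx11* (r = -0.30, adjusted p = 0.25) did not follow the share over the 18 rats. Within naïve, bPYX+GFP and bPYX+NT3 rats r was 0.07, -0.52 and 0.59 for *Vamp2*. For *Stx11* it was 0.03, -0.84 and 0.35 in the same order. What sets the share of ambiguous reads in a rat was not tested.

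**Figure D4:**
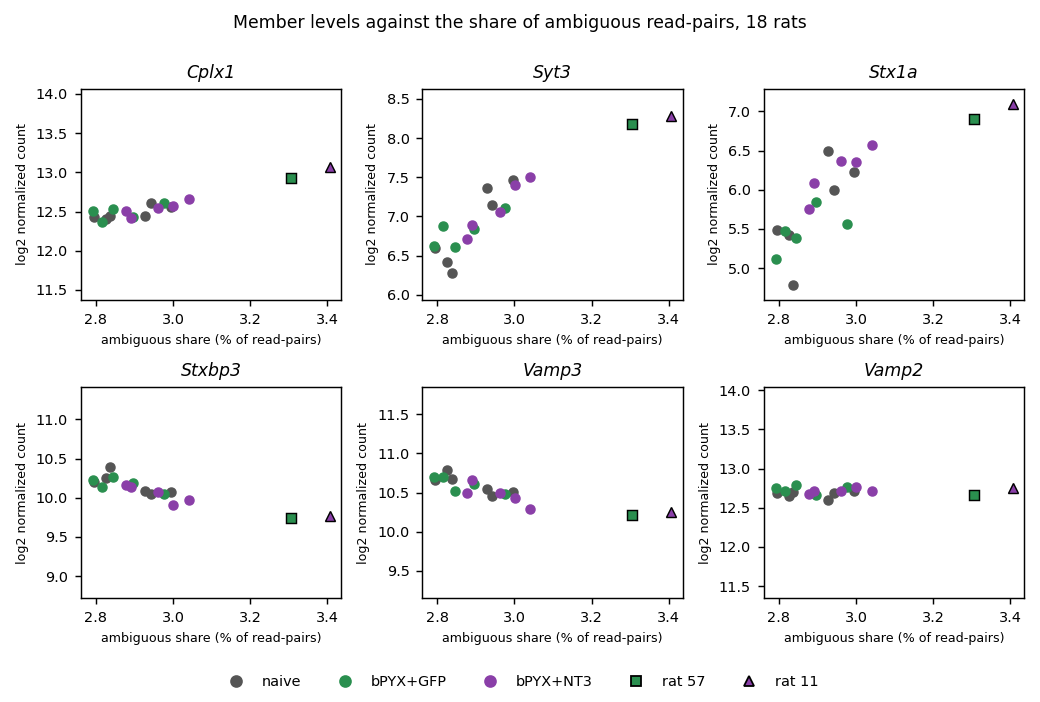
Log2 normalized counts (y axes, all spanning the same range) of 6 members against the share of ambiguous read-pairs in percent, with 1 point per rat (n = 18) coloured by group. *Cplx1*, *Syt3* and *Stx1a* are higher and *Stxbp3* and *Vamp3* lower in rats with a larger share, rats 57 (square) and 11 (triangle) lie at the right end, and *Vamp2* is level.

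The promoters of the members on either side of that pattern were compared as a description. Of the 14 with a sequence that rose with the share, 10 held a GC box (71.4%), and of the 13 that fell with it, 5 did (38.5%), with a median GC content of 60.2% and 60.8%. The *Stxbp3* promoter, with 45.2% GC and no box, and the *Stx1a* promoter, with 68.4% GC and 4 boxes, hold the fewest and the most boxes of the sequences shown above, and that of *Stx11* the highest GC content (71.6%).

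**Figure D5:**
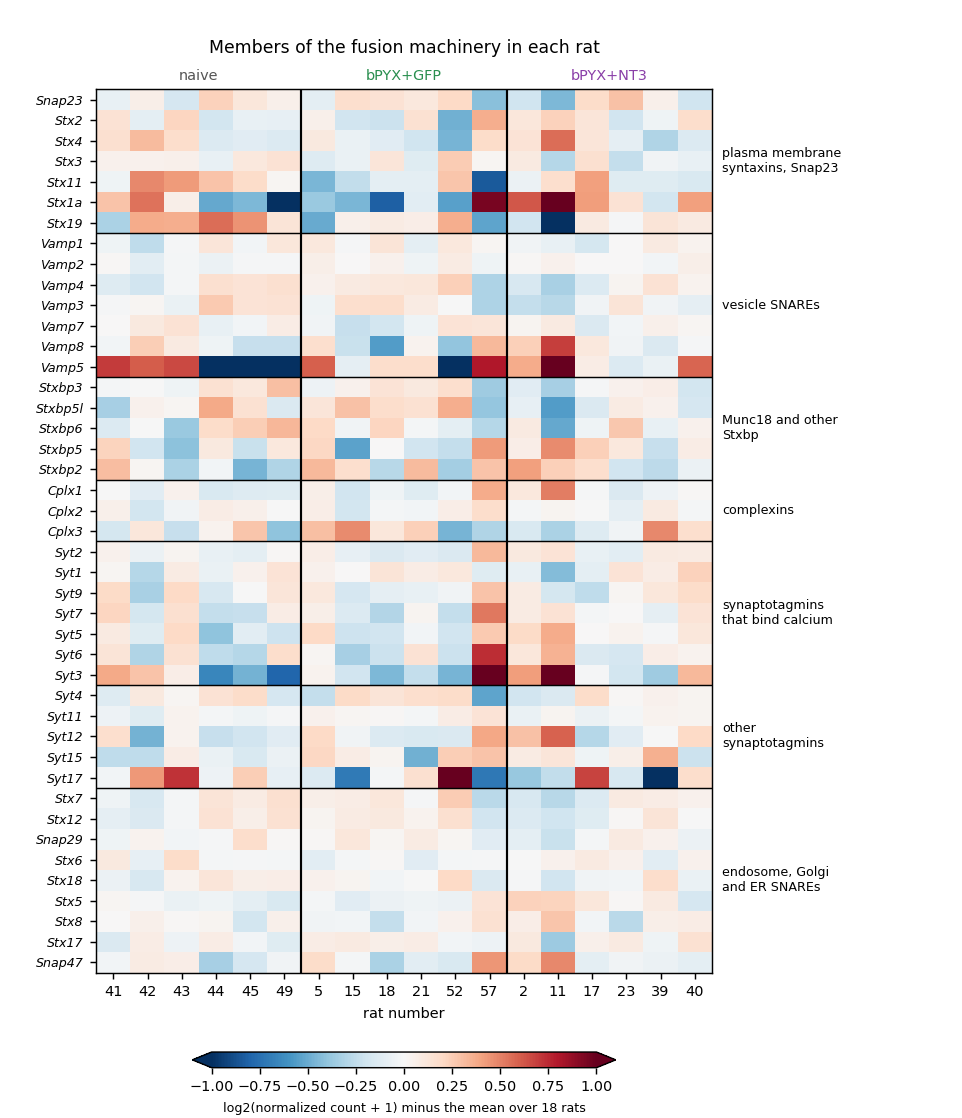
Log2(normalized count + 1) minus the member's mean over the 18 rats for 43 members that passed the filter (rows, by role) in each rat (columns, by group), with red above and blue below the mean and colours ending at ±1. Columns 57 and 11 are deeply coloured in many rows and the low-count *Vamp5* and *Syt17* in other rats too, while *Vamp2* and *Syt11* stay pale across all rats.

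Among the other cell types of the ganglion, the myelinating Schwann cell markers *Mal* and *Pmp22* were called lower than in naïve rats in bPYX+GFP (-0.44 and -0.31) and in bPYX+NT3 (-0.47 and -0.31), and the other 5 of 7 were not called. All 4 fibroblast markers tested had negative log2 fold changes in both of these comparisons, from -0.49 to -0.11 and from -0.37 to -0.26, and 3 were called in each, *Col1a1* and *Col3a1* among them. Both adipocyte markers tested were called lower in bPYX+NT3 than in bPYX+GFP rats (-2.05 and -2.11). Against naïve rats they had log2 fold changes of -1.85 (called) and -1.41 (not called). The summed fibroblast markers ranged from 2026 to 2978 CPM in naïve, 1857 to 2409 CPM in bPYX+GFP and 1642 to 2692 CPM in bPYX+NT3 rats. Of the spinal cord glia markers with a row, *Slc1a2* and *Olig1* had at most 0.187 and 0.0965 CPM, while *Mog* had 7.47 to 10.9 CPM and was called lower in bPYX+NT3 than in naïve rats (log2 fold change -0.29). Skeletal muscle markers summed to 0.941 to 2.00 CPM in naïve, 0.827 to 5.59 CPM in bPYX+GFP and 1.198 to 2.86 CPM in bPYX+NT3 rats, with *Myl1* at most 0.0828 CPM and *Acta1* at most 3.97 CPM. Upward calls occurred too. Of 4 satellite glia markers 1 was called higher in bPYX+NT3 than in bPYX+GFP rats, with log2 fold changes over the list from -0.15 to 0.42. Of 5 endothelial markers 1 was called higher in bPYX+NT3 than in naïve rats, with values over the list from 0.04 to 0.33. The part of these cell types in the member values was not tested.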

How the data were processed

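RNA from the C6-C8 ganglia of 18 rats was sequenced as paired-end reads from a stranded poly(A) library per rat. Per the labels and methods, the authors converted reads with bcl2fastq 1.8.4, aligned them with TopHat2 to Rnor_6.0, removed duplicates with Picard and counted read-pairs per RefSeq identifier with HTSeq (other versions are not given in the sources used here). The deposited values are raw counts without normalization. They were the same in the series table and in the single-rat files for 18 of 18 rats. Symbols came from RefSeq for 14187 of 15075 rows, and the 888 rows without one, with 5.11% of reads, stayed in library sizes and tests.

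Each pair of groups was fitted with edgeR 4.0.16 in R 4.3.3 (TMM scaling, quasi-likelihood test, over 10 reads in 6 or more rats of the pair), with Benjamini-Hochberg adjusted p-values. Log2 CPM values for the exact two-sided permutation tests used a prior count of 2. Where nothing states separate litters or cultures, p-values measure the spread between rats only. The fits were tested on simulated data. Alternatives were DESeq2 1.42.0, the likelihood ratio test, other scalings and filters, covariates, a replicate block, 1 fit over the 3 groups and leaving out each rat. The ambiguous share as a covariate and leaving out rats 57 and 11 were added after seeing the data.

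Named were members with an unadjusted p under 0.05, the neuronal core, the member with the most reads in each role group, related genes with an unadjusted p under 0.05 and members that failed the filter. Some items that this rule names are not reported here. Other members named (among them *Snap23*, *Stx5*, *Stxbp3*, *Stxbp5l*, *Syt3*, *Syt5*, *Syt11*, *Vamp4* and *Vamp5*) were chosen after their values were seen. The members and gene lists were chosen with earlier results of these data known.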

Additional observations from a re-analysis of the deposited data

Results flagged for a closer look

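Over 135 sets of 6 rats (45 members in 3 groups), the highest or lowest rat stood apart from the other 5 by Dixon's test at the 95% level in 8, and chance gives about 1 in 20. In bPYX+GFP rats, 4 of the 8 were rat 57. Its *Syt3* value was 289.2 normalized counts against 97.7 to 139 in the other rats, *Stx5* was 465.1 against 391 to 416, *Stxbp5l* was 499.9 against 709 to 840.3 and *Vamp4* was 2939 against 3754 to 4298. In the same group rat 21 had 42.6 for *Syt15* against 61.1 to 73.2. In bPYX+NT3 rats, rat 11 had 13.3 for *Stx19*, a gene of epithelia, against 27.4 to 34.5. In naïve rats, rat 45 had 1709 for *Snap29* against 1471 to 1548 and 264.7 for *Stx8* against 301 to 312. Rats 57 and 11 are the rats with the highest ambiguous share, and its part in these values was not tested.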

How the results depend on the processing

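The median log2 fold change of the members moved by less than the spread in every alternative run. Single values were tallied for a part of the members tested only. *Syt5*, *Syt11*, *Syt12*, *Syt15*, *Stx4*, *Stxbp2* and *Vamp8* were among those left out of this tally. Under other settings 1041 of 1076 such values stayed on their side of the threshold, and 814 of 846 did when 1 rat was left out. Of these, 144 and 72 changed sign without being past the threshold in either fit. Another 27 and 24 newly passed the threshold, 6 and 8 no longer passed it, and 2 called values reversed. The reversed called values were *Stx11* between bPYX+GFP and naïve rats (0.020) and *Vamp3* between bPYX+NT3 and naïve rats (0.070), both with the groups of the recorded titles. For bPYX+GFP against naïve the count of members called was 1. It became 2 with DESeq2 and with the ambiguous share as a covariate, 0 with the neuronal marker level as a covariate and 0 with the recorded titles (which gave 1 member, *Stxbp2*, for bPYX+NT3 against naïve), and lay between 1 and 2 when 1 rat was left out. Over all genes 377 of 11601 were called in the fit used above, 373 with DESeq2 and 1018 with the ambiguous share. With the neuronal marker level 410 were called, and with the recorded titles 174 of 11686. For bPYX+NT3 against naïve the count of members called was 1. It became 2 with the likelihood ratio test, DESeq2, DESeq2 size factors or no filter (*Stx1a* beside *Vamp3* in each), and 0 with the no-feature share or the neuronal marker level as a covariate or without rats 57 and 11, and lay between 0 and 5 when 1 rat was left out. In 2 more settings the count stayed at 1 with another member in place of *Vamp3*. These were *Stx4* (-0.21) with the ambiguous share and *Stx5* (0.15) in 1 fit over the 3 groups. Over all genes 703 of 11693 were called in the fit used above, 744 with the likelihood ratio test and 819 with DESeq2. With the ambiguous share 402 were called, and in the fit over the 3 groups 587 of 11821. With the no-feature share 480 were called, with the neuronal marker level 307, and without rats 57 and 11 365 of 11636. Without rat 23 alone 1387 of 11670 genes were called. For bPYX+NT3 against bPYX+GFP the count of members called was 0. It became 1 with the likelihood ratio test and DESeq2 (*Stxbp5l*), 2 without the filter (*Stxbp5l* and *Syt10*), 2 with the no-feature share, 6 with the neuronal marker level, 3 with the ambiguous share and 3 without rats 57 and 11 (*Stx1a* 0.76, *Stxbp5l* -0.28, *Vamp4* -0.13), and lay between 0 and 4 when 1 rat was left out. The counts over all genes rose in the last of these settings too. From 201 of 11623 they became 225 with the no-feature share, 2191 with the neuronal marker level and 332 with the ambiguous share. Without rats 57 and 11 the count was 1462 of 11477, and without rat 57 alone 2291 of 11556. Except where shown in the report, the cause was not tested.

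Titles in the 3 groups share replicate numbers. The deviations of same-numbered rats correlated between -0.37 and 0.32 for naïve with bPYX+GFP and between -0.40 and 0.50 for bPYX+GFP with bPYX+NT3. For naïve with bPYX+NT3 they correlated between 0.29 and 0.53 in 5 pairs and at -0.30 in the other. In the same pairs of groups, 1 (naïve with bPYX+GFP), 3 (bPYX+GFP with bPYX+NT3) and 5 (naïve with bPYX+NT3) of 12 rats correlated best with their own number. Whether same-numbered rats share more than a number cannot be told from these values. With the replicate block 8 members were called between bPYX+NT3 and naïve rats, *Stx1a* (0.61) among them. Over all genes 2962 of 11693 were called there, against 703 without the block. For bPYX+NT3 against bPYX+GFP 1 member was called with the block, *Stx1a* (0.64). Depth limits *Vamp5*, *Syt17* and the 6 rows that failed the filter.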
